A study of Oryza sativa and Arabidopsis thaliana with 24 samples.

Results

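The 375 fragments described here are 5' tRNA fragments in which a single G of the parent tRNA, at base 9 or at base 26 from the 5' end, was read as A, C or T. They were chosen by sequence alone. A listed fragment of class tRF-5 or 5'-halves (a fragment that starts at the first base of a mature tRNA, 5'-halves being cut in the anticodon loop and tRF-5 before it) was taken if it was no exact part of any listed tRNA. It also had to align without gaps to the 5' end of a tRNA with exactly 1 mismatch, at one of those G positions. Of 8620 fragments listed in both species, 208 of 5826 in Arabidopsis and 167 of 2794 in rice met the rule. In Arabidopsis 133 were misread at base 9 and 75 at base 26, and in rice 108 and 59. They were 17 to 40 nt long, and 143 of the Arabidopsis fragments and 109 of the rice fragments were of class tRF-5.

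The study measured tRNA-derived fragments by small RNA sequencing of pretreated total RNA in 24 libraries, 12 groups with 2 replicates each. The 5 Arabidopsis thaliana groups were flower, silique (the seed pod), rosette leaf, stem leaf and stem of untreated plants grown in soil at 23 °C with 16 h of light and 8 h of dark. The 7 rice (Oryza sativa) groups were panicle (the flowering head), and root and shoot of seedlings kept in nutrient solution at 28 °C with 14 h of light and 10 h of dark and then exposed to cold (4 °C for 8 h in continuous light), to salt (300 mM NaCl for 8 h) or to neither. No label gives plant ages, the number of plants per library or a cultivar, and no group carries a mutation. The design text calls the replicates biological, but no label says whether they came from separate plants. In all 12 groups replicate 2 held 1.58 to 1.64 times the listed reads of replicate 1, and the labels do not say why. The p-values therefore measure only the spread between these libraries, which may be partly or wholly technical. The tables hold tRNA fragments and no mRNA, so the tissue labels were not checked against marker genes. Per library, the fragment tables held 159832 to 1293518 reads in Arabidopsis and 67985 to 434778 in rice, and levels were given as RPM (reads scaled by library size), where 1 read was worth 0.651 to 3.85 RPM in Arabidopsis and 0.120 to 1.12 RPM in rice. Reads without molecular identifiers are not independent molecules, so limits set by read numbers cover counting error only.

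Both positions are known sites of methylated guanosine in eukaryotic tRNAs. In yeast, the enzyme Trm10 adds a methyl group to N1 of G at position 9, and Trm1 adds methyl groups to N2 of G at position 26, between the D stem and the anticodon stem. Both sit on the face of the base that pairs, and reverse transcriptases can stop at such bases or insert a wrong one, so tRNA sequencing often shows mismatches there. Methylation was not measured in these libraries.

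A selection of misread fragments is given 5' to 3', as DNA letters, with the misread base in capitals. It holds some of the families with high misread RPM, not all, and fragments whose levels or shares are described later. Each is named by the first listed of the parent tRNAs it fits, its length and the change. The change gives the parent base first, its position from the 5' end, and then the base read. The first group is misread at base 9.
at_tR84 27 nt G9A (Gly-GCC): gcaccagtAgtctagtggtagaatagt
at_tR63 36 nt G9T (Gln-CTG): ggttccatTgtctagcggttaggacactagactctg
at_tR223 24 nt G9C (Val-AAC): ggtttcgtCgtgtagttggttatc
os_tR115 25 nt G9A (Gly-GCC): gcaccagtAgtctagtggtagaata
os_tR13 18 nt G9T (Arg-ACG): gactccatTgcccaatgg
os_tR14 19 nt G9T (Arg-ACG): gattccatTgcccaatgga
os_tR78 36 nt G9T (Gln-CTG): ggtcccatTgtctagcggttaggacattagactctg
os_tR284 24 nt G9C (Val-AAC): ggtgtcgtCgtgtagttggttatc

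The second group is misread at base 26, with the unaltered parent sequence of the Arg-CCT fragment (capital G) added for comparison.
at_tR206 36 nt G26A (Tyr-GTA): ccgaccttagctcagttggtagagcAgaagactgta
at_tR20 34 nt G26T (Arg-CCT): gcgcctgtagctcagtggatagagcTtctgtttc
at_tR20 34 nt parent: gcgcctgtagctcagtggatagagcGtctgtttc
at_tR160 31 nt G26T (Ser-AGA): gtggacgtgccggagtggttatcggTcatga
os_tR24 35 nt G26T (Arg-CCT): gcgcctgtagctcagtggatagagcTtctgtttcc
os_tR231 28 nt G26T (Ser-CGA): gtcgatatgtccgagtggttaaggaTgt

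Of the 56 Arabidopsis parents, 55 are nuclear and 1 is plastid (Leu-TAA, with 2 fragments). Of these parents, 26 have 1 listed copy and the other 30 have up to 32 identical copies, so their fragments cannot be assigned to a single locus. A fragment can also fit several parents of a family, so the tRNA in its name does not fix its origin. The Tyr-GTA parents, for example, also include at_tR208 with 32 copies. In TAIR10 coordinates, the first listed copy of at_tR84 lies on the minus strand at chr1:2107398-2107468 (AT1G06860, annotated as tRNA-Gly) and is 1 of 14 copies. That of at_tR206 lies on the plus strand at chr1:18308903-18308987 (AT1G49460, tRNA-Tyr, 1 of 14), and that of at_tR20 on the plus strand at chr1:18387802-18387874 (AT1G49690, tRNA-Arg, 1 of 5). That of at_tR223 lies on the minus strand at chr1:10963573-10963646 (AT1G30830, tRNA-Val, 1 of 13). The tRNA at_tR63 has 1 copy, on the minus strand at chr1:111890-111961 (AT1G01270, tRNA-Gln). In the RefSeq genome sequence of Arabidopsis, 0 of the 208 misread sequences and 208 of the 208 unaltered parent sequences were found as exact matches. The rice genome was not analysed here.

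In both species these G residues had more mismatched fragments than any other combination of parent base and position. In Arabidopsis, G at base 9 had 133 of the 1826 mismatched 5' fragments with 1 mismatch and G at base 26 had 75, and the next position, G at base 4, had 61. In rice the numbers were 108 and 59 of 351, and the next position, G at base 10, had 17. Among listed fragments, those misread at bases 9 and 26 made up 47.6% of the 1-mismatch 5' sequences in rice and 11.4% in Arabidopsis. They carried 57.2% of the RPM of such sequences in rice and 38.6% in Arabidopsis. By RPM, G at base 25 in Arabidopsis stood at 2084 RPM, above the 1916 RPM of G at base 26. Where the parent carries another base than G at base 9 or 26, rice had 0 such 5' fragments listed. In Arabidopsis, base 9 had 14 fragments with a replaced C and 9 with a replaced A, and base 26 had 28 with a replaced A, 4 with a replaced T and 1 with a replaced C. Listed fragments summed to 597393 to 898422 RPM per library in Arabidopsis and 51605 to 85656 RPM in rice. The lowest listed means were 1.44 and 1.14 RPM. A mismatch of the same rate can therefore be listed in Arabidopsis and missing in rice, and its part in these species differences was not tested.

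**Figure D1:**
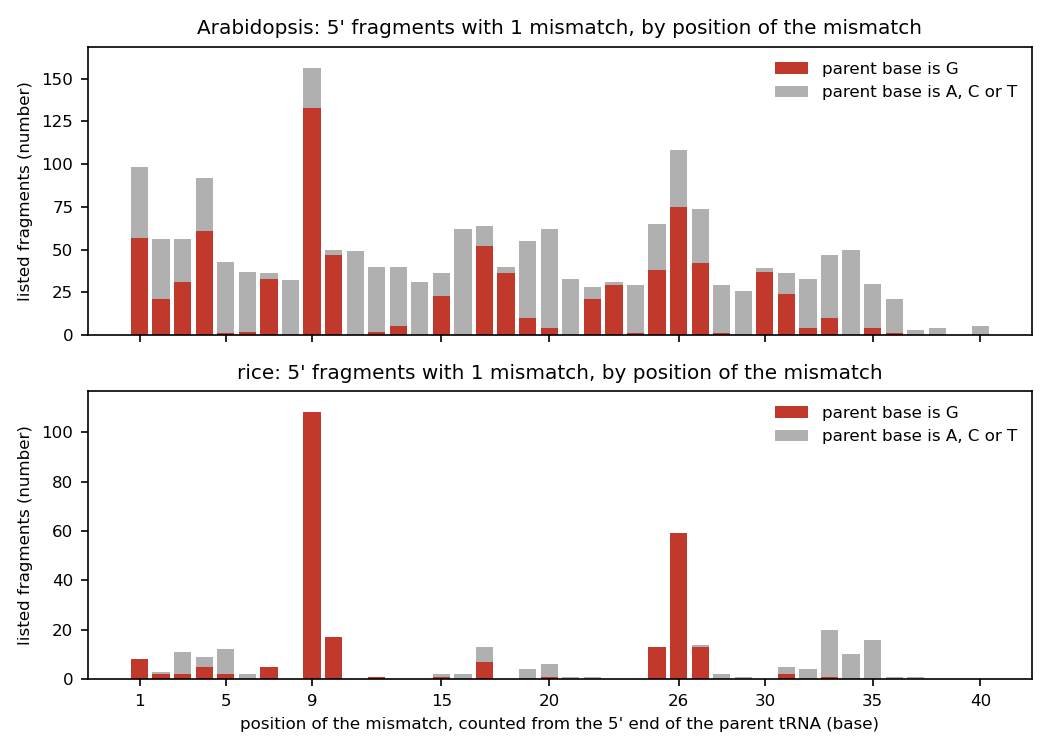
The bars give the number of listed 5' fragments with exactly 1 mismatch (y axis) by the position of the mismatch from the 5' end of the parent tRNA (x axis, bases), split by the parent base. G at base 9 (133 and 108 fragments) and G at base 26 (75 and 59) stand above every other parent base and position in Arabidopsis and rice.

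The base-26 fragments shared a place in the tRNA that the rule did not use. All 75 in Arabidopsis and all 59 in rice lay 8 bases before the anticodon, which is where position 26 of the standard tRNA numbering lies. Most listed tRNAs with G at base 26 have it at that place in both species, so much of this match was set by the parents beforehand. The D loop differs in length between tRNAs, so the same place can fall at another count from the 5' end, outside the rule. In Arabidopsis, 32 fragments with a replaced G 8 bases before the anticodon had it at base 25, 41 at base 27 and 1 at base 28. In rice 13 had it at base 25 and 13 at base 27.

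A minority of the tRNAs with G at these positions gave a listed misread fragment. In Arabidopsis, 110 of 232 tRNAs have G at base 9 and 35 of them gave at least 1, and 100 have G at base 26, of which 25 did. In rice, 130 of 299 tRNAs have G at base 9 and 33 gave at least 1, and 101 have G at base 26, of which 22 did. These totals include tRNAs with neither an exact nor a misread fragment listed that covers the base, where misreading could not be judged. At base 26 in Arabidopsis this held for all 7 Arg-TCT and all 7 Ser-GCT nuclear tRNAs with G there. Some abundant tRNAs gave none: exact 5' fragments of plastid Ser-GCT that cover base 9 averaged 7041 RPM in Arabidopsis with 0 misread fragments listed. Plastid Leu-CAA had 3959 RPM of exact fragments covering base 9 and 785 RPM covering base 26, again with 0 listed. Fragments of low abundance are missing from the list at a floor that is not given in the sources used here, so 0 listed does not mean 0 reads.

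A small number of nuclear families held most of the misread RPM. At base 9 in Arabidopsis, 47 Gly-GCC fragments summed to a mean of 6848 RPM over the 10 libraries, 78.5% of all base-9 RPM. Gln-CTG followed with 39 fragments and 1058 RPM, Val-AAC with 6 and 368 RPM, and Gln-TTG with 11 and 273 RPM. At base 26, Tyr-GTA led with 16 fragments and 961 RPM (50.2% of base-26 RPM), before Arg-CCT with 21 and 416 RPM, Ser-AGA with 9 and 248 RPM, and Phe-GAA with 6 and 122 RPM. These anticodons decode glycine, glutamine, valine, tyrosine, arginine, serine and phenylalanine codons, so no single amino acid accounted for them.

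Rice had another order. Arg-ACG led at base 9 with 20 fragments and 900 RPM (45.1% of base-9 RPM), before Gly-GCC with 32 and 696 RPM, Gln-CTG with 33 and 295 RPM, and Pro-CGG with 12 and 51.9 RPM. At base 26, Arg-CCT had 16 fragments and 154 RPM, Ala-AGC 9 and 144 RPM, Tyr-GTA 6 and 72.4 RPM, Ser-CGA 2 and 42.9 RPM, and Ala-CGC 9 and 42.5 RPM. Arg-ACG, first in rice, had 8 fragments and 31.1 RPM in Arabidopsis, below the leading base-9 families there. Listed fragments sum to more RPM per library in Arabidopsis, as given above, so RPM values are not directly comparable between the species. Single fragments ranged from 1.87 to 2019 RPM in Arabidopsis (median 7.83) and from 1.23 to 269.7 RPM in rice (median 4.65).

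Of the misread sequences, 64 were listed in both species letter for letter, 30.8% of the 208 in Arabidopsis and 38.8% of the 165 distinct sequences in rice. They were 37 at base 9 and 27 at base 26. Rice has 2 sequences fewer than listed rows because the 34 nt fragments os_tR24 G26T and os_tR24 G26A stand in both 5' classes. Shared sequences made it possible to compare the base read on the same parent. The 27 nt Gly-GCC fragments were read A in 76.0% of the misread RPM in Arabidopsis and in 74.2% in rice. The 34 nt Arg-CCT fragments were read T in 89.1% of the misread RPM in Arabidopsis and in 90.9% in rice.

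The base read in place of G differed more between families than between species. Shares per family are of the misread RPM summed over libraries, so libraries of high RPM weigh more. In Gly-GCC, A made up 77.1% in Arabidopsis and 74.8% in rice. In Val-AAC the same G was read mainly as C, at 90.1% in Arabidopsis and 79.6% in rice. Both families have the same 2 bases on each side of base 9 (gtGgt). T led in the glutamine and Arg-ACG families: it made up 53.9% and 62.7% in Gln-CTG, and 68.6% and 65.6% in Arg-ACG, in Arabidopsis and in rice.

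At base 26, T was the usual base. It made up 89.9% of misread RPM in Arg-CCT in Arabidopsis and 91.2% in rice, and 83.7% and 75.4% in Ala-AGC. In Tyr-GTA the reads were divided between A and T: A made up 54.7% and T 43.3% in Arabidopsis, and A 36.9% and T 63.1% in rice. Over all families, shares were instead taken per library and averaged. Base 9 was read A at 59.5%, C at 14.8% and T at 25.7% in Arabidopsis, and A at 38.0%, C at 14.2% and T at 47.7% in rice. Base 26 was read A at 33.8%, C at 5.01% and T at 61.2% in Arabidopsis, and A at 18.4%, C at 4.73% and T at 76.9% in rice. A read base too rare to be listed counts as 0 here, so the share of the leading base can be overstated in families of few reads, such as Ala-CGC in Arabidopsis, where T made up 100% of the misread RPM.

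Misread fragments were next set against the exact fragment of the same start and length. An exact counterpart was listed for 160 of the 208 Arabidopsis rows and 135 of the 167 rice rows. For the others, among them all 6 Phe-GAA rows in Arabidopsis, the Gly-GCC rows of 19 to 29 nt in Arabidopsis, and all Ala-AGC and Tyr-GTA rows in rice, the exact level was not analysed here. The mean misread level was above that of its exact counterpart in 17 Arabidopsis rows and 7 rice rows.

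The share of reads misread differed by family. Over all misread fragments with a listed counterpart, the mean share over libraries was 4.48% at base 9 and 61.9% at base 26 in Arabidopsis, and 27.0% and 52.6% in rice. A second measure set all misread fragments against all listed exact 5' fragments of the parents that had a listed counterpart. These means were 11.2% and 64.5% in Arabidopsis and 26.5% and 69.5% in rice. The second measure also counts misread fragments whose exact fragment of the same length is not listed, such as the Arabidopsis Gly-GCC rows of 19 to 29 nt. Its shares can therefore be too high. At base 9 the tissue order differed between the measures and so depends on the fragments counted. Silique had 3.89% by the first and 23.5% by the second, with flower at 6.58% and 14.1%. The 4.48% at base 9 in Arabidopsis includes the exact 23 nt Ser-AGA fragment, which averaged 51886 RPM beside 35 RPM misread. In the Arg-CCT family at base 26, between 86.6% and 96.9% of reads were misread over the 9 Arabidopsis libraries with at least 20 such reads (median 94.0%), and 75.1% to 96.5% over the 14 rice libraries (median 92.2%). In rice Phe-GAA the range was 86.7% to 97.5% (median 91.5%, 12 libraries). Tyr-GTA in Arabidopsis had 58.7% to 70.9% (median 62.2%) and Ser-AGA 50.0% to 79.0% (median 70.4%). In the median library of each of these families, A, C and T together were read more often than the G that the parent tRNA carries. Alanine families with listed counterparts, at the same tRNA position, had lower medians: 28.3% in Ala-AGC, 23.2% in Ala-TGC, 34.7% in fragments common to both and 39.3% in Ala-CGC in Arabidopsis, and 25.8% in Ala-CGC and 23.8% in Ala-TGC in rice. Rice Ala-AGC is not among them, with 144 RPM misread and 2.73 RPM of listed exact fragments that cover base 26. Single ends varied more, from 21.0% to 78.9% over 3 Ala-AGC ends in Arabidopsis with scarce ends counted.

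At base 9 no family median reached those of Arg-CCT. In Val-AAC, 56.2% to 68.0% of reads were misread in 8 Arabidopsis libraries (median 62.3%), and 12.2% to 42.0% in rice (median 34.2%). Gly-GCC had 37.7% to 50.7% in Arabidopsis (median 45.5%, from fragments of 30 nt and longer) and 32.7% to 39.9% in rice (median 36.2%). Arg-ACG in rice stayed between 33.5% and 38.3% in all 14 libraries. Gln-CTG was lower and alike in both species, at 9.31% to 12.2% in Arabidopsis and 10.5% to 13.7% in rice. At the low end, Ser-AGA at base 9 in Arabidopsis had 0.0445% to 0.295%, while 50.0% or more of the Ser-AGA reads that reach base 26 were misread there.

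**Figure D2:**
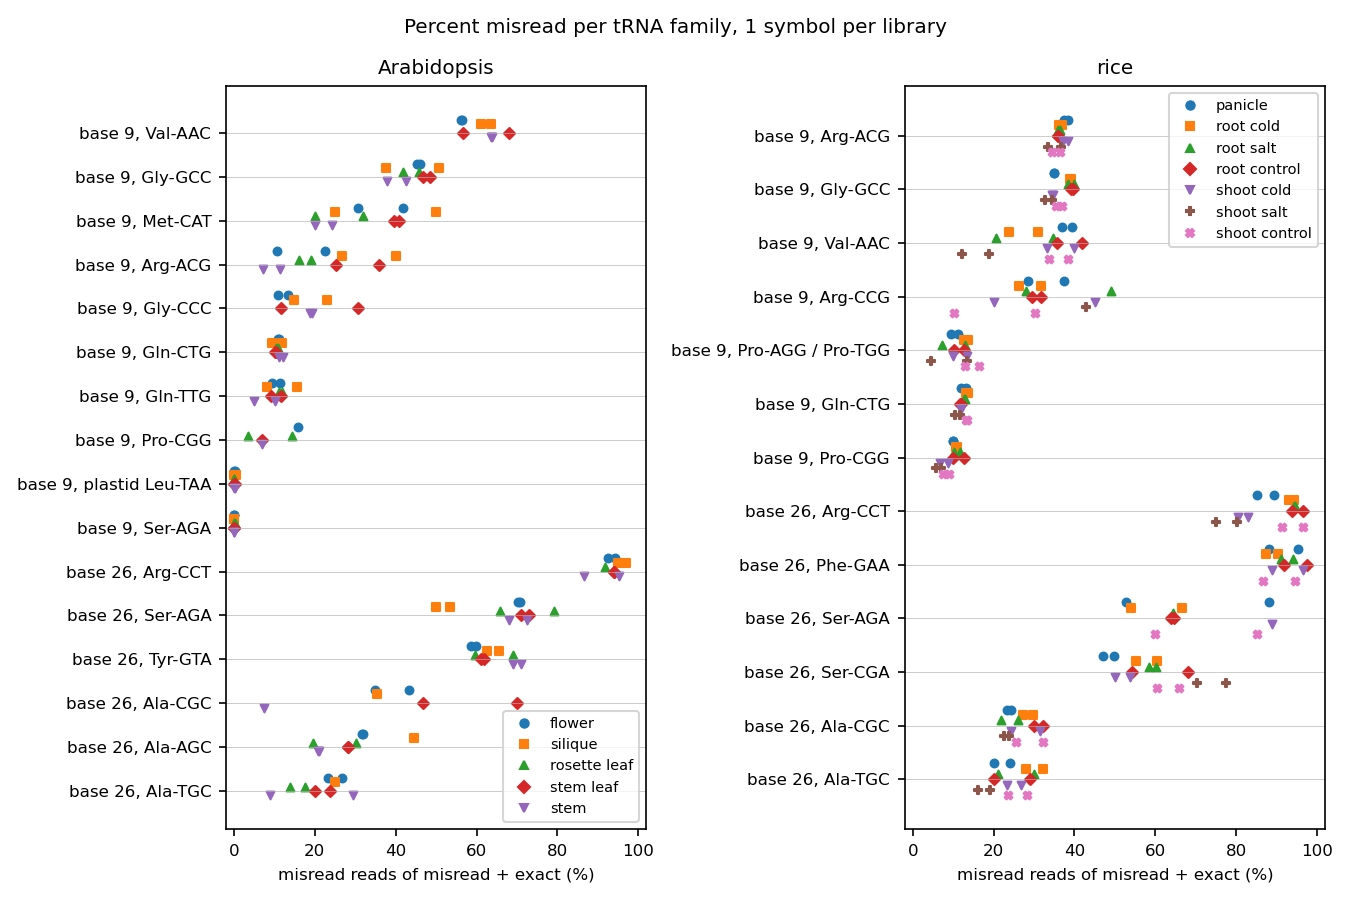
Each symbol gives the percent of misread reads among misread and exact reads of a tRNA family in 1 library (x axis), for families with exact counterparts and at least 20 reads. Arg-CCT at base 26 lies at 86.6% to 96.9% in Arabidopsis and 75.1% to 96.5% in rice, and Gln-CTG at base 9 at 9.31% to 12.2% and 10.5% to 13.7%.

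Shares were also compared between fragments of different length, for ends with at least 20 RPM of misread and exact reads together. In rice Gly-GCC, 11 such ends between 23 and 34 nt had 35.1% to 42.4% misread, and 6 Arg-ACG ends had 35.1% to 38.1%. With scarcer ends included, 13 Gly-GCC ends had 25.3% to 42.4% and 8 Arg-ACG ends 22.0% to 38.1%. In Arabidopsis, 8 Gly-GCC ends between 30 and 35 nt ranged from 36.6% to 53.8%, and all 12 from 20.3% to 53.8%. The share of A in misread Gly-GCC ranged from 76.0% to 92.4% over 15 ends in Arabidopsis and from 72.3% to 76.8% over 6 in rice, counting ends with at least 20 RPM misread. Over all ends it reached 73.8% to 100% (21 ends) in Arabidopsis and 72.3% to 100% (14 ends) in rice. The share misread at base 26 in Arabidopsis Ser-AGA went from 15.5% to 80.8% over 4 ends.

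The levels in the Arabidopsis tissues were compared by a limma fit over all 5826 fragments, with a call at a Benjamini-Hochberg adjusted p under 0.05. Summed over base-9 fragments, the RPM was 9318 and 9367 in flower, 17548 and 17219 in silique, 4023 and 3784 in rosette leaf, 5605 and 5586 in stem leaf, and 7688 and 7051 in stem. Silique was highest and rosette leaf lowest, with no overlap between any pair of tissues. Base-26 fragments had another order, with 3506 and 3599 RPM in flower, 1880 and 1998 in silique, 864 and 738 in rosette leaf, 1427 and 1232 in stem leaf, and 2049 and 1862 in stem. Flower was highest there, and silique and stem overlapped. In these bulk samples, fewer cells of a type and less fragment RNA per cell cannot be told apart.

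Of the 208 misread fragments, 84 (40.4%) differed among the 5 tissues, against 33.3% of all fragments. Without flower replicate 1 or flower replicate 2 the number was 50 or 51. When flower and silique were set against the 3 vegetative tissues, 40 were higher, where 9.9% of all fragments were, and 3 were lower, where 8.87% were. In only 19 of these 43 calls were the flower and silique libraries free of overlap with the vegetative ones. The contrast compares means, so a call does not show that flower and silique each differed. Overlap was not counted over all fragments. The median log2 difference was 0.52 over the misread fragments and -0.01 over all fragments. Without flower replicate 1 or flower replicate 2, the 43 calls became 20 in each case.

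Gly-GCC and Tyr-GTA made up most of these calls. Of 47 Gly-GCC fragments 17 were higher and 0 lower, and of 16 Tyr-GTA fragments 9 were higher and 0 lower. Of 12 Ser-AGA fragments 0 were higher and 2 lower, and the third lower fragment was at_tR65 36 nt G9A of Gln-CTG, named after its values were seen (log2 difference -1.70 ± 0.51 SE, limma adjusted p = 0.041). It had 0 and 0 reads in silique but 19 and 58 in flower, so the tissues joined in this contrast differed. Rosette leaf had 6 and 6 reads, stem leaf 8 and 6, and stem 4 and 12, at unequal depths. The most abundant misread fragment, at_tR84 27 nt G9A of Gly-GCC, had 1569 and 1628 RPM in flower, 5962 and 5740 in silique, 151 and 150 in rosette leaf, 1016 and 1060 in stem leaf, and 1564 and 1346 in stem. Silique was highest and rosette leaf lowest, and flower and stem lay close together. On the log2 scale it was 2.32 ± 0.06 (SE) higher in flower and silique (limma adjusted p = 8.9e-10).

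The tyrosine fragment at_tR206 34 nt G26T had 397.5 and 363.2 RPM in flower, 336.4 and 226.3 in silique, 27.4 and 25.8 in rosette leaf, 17.9 and 34.3 in stem leaf, and 107.8 and 58.9 in stem. All 4 flower and silique libraries lay above all 6 vegetative ones, and the log2 difference was 3.07 ± 0.28 (SE, limma adjusted p = 2.1e-05). Its exact counterpart differed by 2.78 ± 0.20 in the same contrast (limma adjusted p = 4.1e-06). The arginine fragment at_tR20 40 nt G26T had 44.5 and 41 RPM in flower, 164.5 and 216.8 in silique, 0 and 0 in rosette leaf, 33.7 and 31.5 in stem leaf, and 15.4 and 14.7 in stem. It was 3.48 ± 0.35 (SE) higher on the log2 scale (limma adjusted p = 5.6e-05), and its scarce exact counterpart did not pass (1.06 ± 0.86, adjusted p = 0.46).

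Other families had other tissue orders. The valine fragment at_tR223 24 nt G9C had 113.9 and 89.8 RPM in flower, 635.4 and 626.4 in silique, 0 and 8.58 in rosette leaf, 376.9 and 300.5 in stem leaf, and 577.7 and 515.8 in stem. Rosette leaf was lowest, and flower lay below silique, stem leaf and stem. The serine fragment at_tR160 31 nt G26T had 68.3 and 99.6 RPM in flower, 7.48 and 11.9 in silique, 291.3 and 178.1 in rosette leaf, 94.2 and 73.0 in stem leaf, and 200.3 and 181.7 in stem. Silique was lowest. Its log2 difference between flower and silique and the vegetative tissues was -2.39 ± 0.26 (SE, limma adjusted p = 1.0e-04), though flower and stem leaf overlapped. The glutamine fragment at_tR68 30 nt G9T had 3.85 to 74.8 RPM in the 8 libraries of flower, silique, stem leaf and stem, and 325.6 and 309.1 RPM in rosette leaf.

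**Figure D3:**
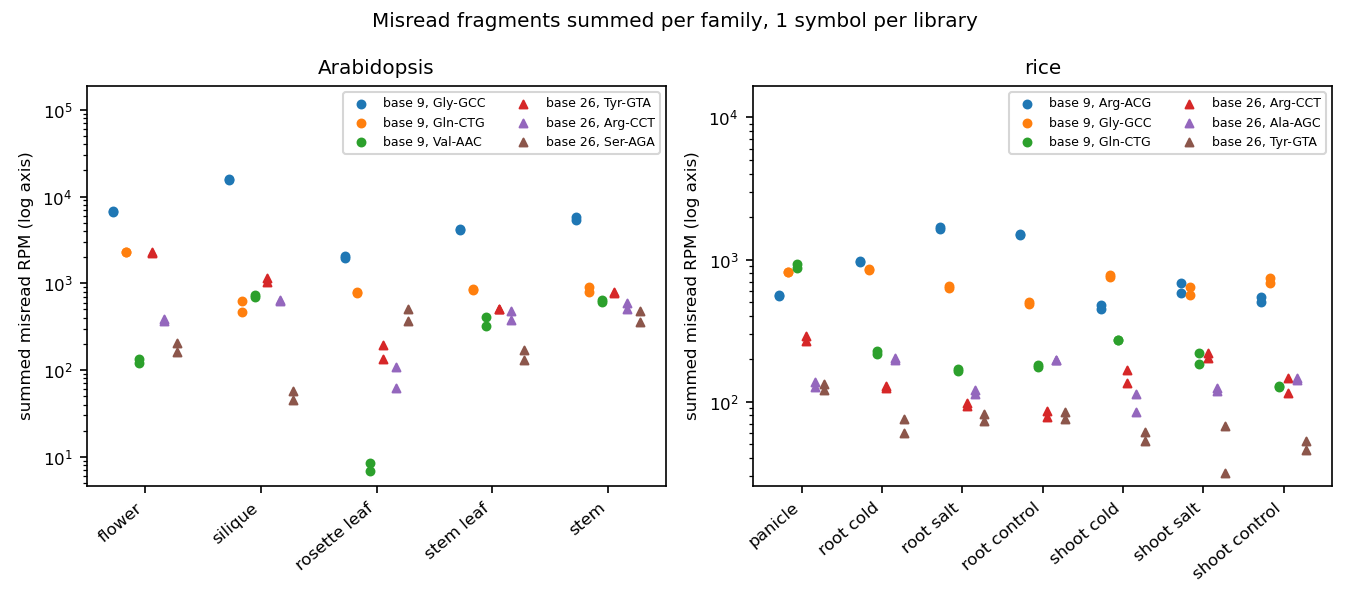
Summed misread RPM (y axis, log scale) of the 3 leading families at each position, with 1 symbol per library, in the Arabidopsis tissues and rice groups. Gly-GCC reaches 15930 and 15692 RPM in silique, against 2056 and 1936 RPM in rosette leaf, and rice Arg-ACG reaches 1485 and 1506 RPM in control root, against 500 and 541 RPM in control shoot.

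For most of these fragments the exact counterpart differed as well. Of the 84 fragments that differed among the tissues, 61 had a listed exact counterpart, and 44 of those counterparts were called too. Of 22 called in flower and silique with a listed counterpart, 16 counterparts were called in the same direction, 0 in the other direction and 6 not at all. Such agreement was not counted over all mismatched pairs. The ratio of misread to exact level was tested over all 2394 pairs with 1 mismatch, and 0 of 160 misread fragments at bases 9 and 26 were called by limma among the tissues, where 0.0418% of all pairs were. At an unadjusted p under 0.05 there were 21, and with a pseudocount of 5 in place of 1 RPM the call count was 28. In flower and silique against the vegetative tissues the count was 0, where 0% of all pairs were called higher and 0% lower, with 11 at an unadjusted p under 0.05 and 9 calls with the larger pseudocount. When the exact fragments of the parent were summed over lengths, the counts were 12 and 2. The shares of all pairs called under these alternatives were not counted. An exact permutation test of the percent misread over the tissues called 0 of 105 misread fragments (0.0% of 1868 pairs), with 10 at an unadjusted p under 0.05, and its smallest possible p was 0.00106. A p that misses the threshold does not show that the shares were equal.

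In rice, base-9 fragments summed to 2442 and 2490 RPM in panicle, 2086 and 2116 in cold root, 2498 and 2607 in salt root, 2246 and 2285 in control root, 1560 and 1630 in cold shoot, 1458 and 1599 in salt shoot, and 1415 and 1531 in control shoot. Every root library lay above every shoot library. Base-26 fragments summed to 734 and 754 RPM in panicle, 576 and 551 in cold root, 406 and 390 in salt root, 509 and 510 in control root, 415 and 421 in cold shoot, 509 and 553 in salt shoot, and 428 and 476 in control shoot. Panicle was highest, and salt root was lowest.

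Panicle was compared with the mean of control root and control shoot. Of the 167 rice fragments, 54 were higher, where 36.2% of all fragments were, and 12 were lower, where 9.06% were. The median log2 difference was 0.62 over the misread and 0.62 over all fragments, and after the libraries were centred on their medians the split was 32 higher and 34 lower. For alternative settings, here and in the comparisons below, the share over all fragments was not counted. Arg-ACG fragments differed in direction from those of Gln-CTG and Arg-CCT: of 33 Gln-CTG fragments 22 were higher and 0 lower, of 16 Arg-CCT fragments 9 were higher and 0 lower, and of 20 Arg-ACG fragments 1 was higher and 7 lower. The glutamine fragment os_tR73 36 nt G9T had 49.5 and 57.3 RPM in panicle, 4.46 and 7.05 in control root, and 2.72 and 2.86 in control shoot. Panicle lay above all libraries of both control organs, and the log2 difference was 3.44 ± 0.34 (SE, limma adjusted p = 2.3e-07), against 2.98 ± 0.12 for the exact counterpart (limma adjusted p = 9.7e-13). The arginine fragment os_tR13 18 nt G9T had 58.5 and 72.7 RPM in panicle, 392.8 and 405.9 in control root, and 147.8 and 155.6 in control shoot. It was lower in panicle by a log2 difference of -1.90 ± 0.10 (SE, limma adjusted p = 5.4e-11), and its exact counterpart by -2.08 ± 0.07.

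Control root against control shoot showed 37 misread fragments higher, where 21.9% of all fragments were, and 16 lower, where 27.5% were. The 53 calls became 33 without control root replicate 1 and 35 without control shoot replicate 1, and after median centring the split was 48 higher and 13 lower. The median log2 difference was 0.22 over the misread fragments and -0.22 over all fragments. Of 20 Arg-ACG fragments 17 were higher in root and 0 lower, and of 33 Gln-CTG fragments 9 were higher and 0 lower. Of 32 Gly-GCC fragments 1 was higher and 7 lower, and of 16 Arg-CCT fragments 1 was higher and 5 lower.

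The most abundant rice fragment, os_tR13 18 nt G9T, with the control values just given, was 1.39 ± 0.12 (SE) higher in control root on the log2 scale (limma adjusted p = 2.0e-08), against 1.42 ± 0.08 for its exact counterpart. Under salt it reached 701.8 and 720.3 RPM in root, above the 2 control root libraries. Glycine and valine fragments of 24 nt went the other way. The valine fragment os_tR284 24 nt G9C had 6.18 and 5.34 RPM in control root and 41.3 and 45.5 in control shoot, a log2 difference of -2.72 ± 0.34 (SE, limma adjusted p = 3.0e-06) against -2.72 ± 0.24 for its exact counterpart. The glycine fragment os_tR115 24 nt G9A had 29.5 and 24.8 RPM in control root and 131.9 and 145.9 in control shoot (log2 difference -2.32 ± 0.23 SE, limma adjusted p = 1.3e-07). The fragment 1 base longer, os_tR115 25 nt G9A, had 154.7 and 185.6 RPM in control root and 190.4 and 180.8 in control shoot, where the organs overlapped.

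Cold gave fewer calls than the comparison of organs. In root, cold against control gave 9 higher, where 5.87% of all fragments were, and 6 lower, where 3.51% were, with a median log2 difference of 0.20 over the misread and 0.08 over all fragments. Of 32 Gly-GCC fragments 5 were higher and 1 lower, and of 20 Arg-ACG fragments 0 were higher and 4 lower. The glycine fragment os_tR115 25 nt G9A had 383.9 and 373.4 RPM in cold root and 154.7 and 185.6 in control root, a log2 difference of 1.15 ± 0.10 (SE, limma adjusted p = 2.2e-07), and its exact counterpart differed by 1.10 ± 0.05. The 15 calls in root became 3 and 4 without cold root replicate 1 and 2, 5 and 8 without control root replicate 1 and 2, and 25 without salt shoot replicate 1 or 2, and a limma voom fit on the recovered reads, added after seeing the data, called 39.

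In shoot, cold against control gave 8 higher, where 9.99% of all fragments were, and 5 lower, where 5.12% were, with 6 of 33 Gln-CTG fragments among the higher ones. The median log2 difference was 0.19 over the misread and 0.09 over all fragments. The glutamine fragment os_tR78 36 nt G9T had 71.2 and 71.1 RPM in cold shoot and 38.5 and 26 in control shoot (log2 difference 1.14 ± 0.22 SE, limma adjusted p = 0.0013). The valine fragment os_tR284 24 nt G9C fell to 9.69 and 13.6 RPM in cold shoot, against 41.3 and 45.5 in control shoot (log2 difference -1.83 ± 0.34 SE, limma adjusted p = 0.0013). The other 4 lower fragments, named after their values were seen, were os_tR13 18 nt G9T of Arg-ACG, os_tR1 33 nt G26T of Ala-AGC, os_tR163 35 nt G26A of Lys-CTT and os_tR115 23 nt G9T of Gly-GCC, with log2 differences of -0.48, -0.83, -1.65 and -1.99. The 13 calls became 24 without salt shoot replicate 1 or 2.

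Salt in shoot gave 19 fragments higher, where 17.4% of all fragments were, and 14 lower, where 13.8% were. The split was 10 higher and 21 lower after median centring, the 33 calls became 20 without control shoot replicate 1, and the voom fit called 18. The median log2 difference was 0.16 over the misread and 0.01 over all fragments. Of 32 Gly-GCC fragments, 4 of 28 to 34 nt were higher and 5 of 19 to 27 nt were lower. The 34 nt fragment os_tR115 34 nt G9A had 38.0 and 31.8 RPM in salt shoot and 5.44 and 10.9 in control shoot (log2 difference 2.03 ± 0.37 SE, limma adjusted p = 3.8e-04). The 24 nt fragment os_tR115 24 nt G9A had 36.9 and 18.7 RPM in salt shoot and 131.9 and 145.9 in control shoot (log2 difference -2.36 ± 0.23 SE, limma adjusted p = 4.1e-07). In neither case did the groups overlap.

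Salt in root gave 8 fragments higher, where 4.94% of all fragments were, and 10 lower, where 5.65% were. The 18 calls became 5 without control root replicate 1, 9 without salt root replicate 1 and 10 without salt root replicate 2, and the voom fit called 29. The median log2 difference was -0.03 over the misread and 0 over all fragments. Arg-ACG fragments went opposite ways, with 3 of 20 higher and 4 lower. The fragment os_tR14 19 nt G9T had 45.0 and 47.0 RPM in salt root and 161.6 and 159.2 in control root (log2 difference -1.78 ± 0.16 SE, limma adjusted p = 1.5e-07), and its exact counterpart differed by -1.79 ± 0.11. For os_tR13 18 nt G9T, with 701.8 and 720.3 RPM in salt root and 392.8 and 405.9 in control root, the log2 difference was 0.83 ± 0.12 (SE, limma adjusted p = 8.0e-05). The exact counterpart of os_tR13 18 nt G9T differed by 0.79 ± 0.08.

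Across the rice comparisons, the exact counterparts of called fragments were called in the other direction in 0 cases. In panicle 57 of 60 listed counterparts were called in the same direction, in control root against shoot 36 of 42, in cold shoot 9 of 12, in cold root 10 of 15, in salt shoot 19 of 29 and in salt root 12 of 14. The same count over all mismatched pairs was not made. The panicle, root and cold or salt comparisons share control libraries, so they are not independent of each other.

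The ratio of misread to exact level differed from control in a few shoot fragments. Ratios were fitted over all 588 rice pairs with 1 mismatch, of which 133 were misread at base 9 or 26. Under cold in shoot, 3 were lower, where 28.1% of all pairs were, and 0 were higher, where 0.17% were. The median log2 ratio difference was -0.12 over these fragments, against -0.99 over all pairs. Under salt in shoot 8 were lower, where 26.7% of all pairs were, and 3 were higher, where 1.02% were (medians -0.36 and -0.96). With a pseudocount of 5 RPM the counts of calls were 11 under cold and 29 under salt, and the shares of all pairs called at that setting were not counted. Under salt, the 11 calls became 5 without control shoot replicate 2, 20 without salt shoot replicate 1 and 23 without salt shoot replicate 2, and under cold the 3 became 5 without salt shoot replicate 1 or 2 or without cold shoot replicate 2.

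Arg-CCT fragments were among the calls under both stresses. The third fragment called under cold, named here after its values were seen, was os_tR163 35 nt G26A of Lys-CTT at a mean of 2.11 RPM (log2 ratio difference -2.85 ± 0.81 SE, limma adjusted p = 0.014), and it was also called under salt. The 3 higher under salt, also named after their values were seen, were os_tR115 26 nt G9A of Gly-GCC, os_tR20 18 nt G9T of Arg-CCG and os_tR77 36 nt G9C of Gln-CTG, with log2 ratio differences of 1.97, 1.93 and 1.80. Shares of single fragments count the reads of that base and the exact reads only, without other misread bases of the same end. For os_tR24 35 nt G26T, 70.3% and 83.5% of these reads were T in cold shoot, 89.5% and 66.2% in salt shoot, and 93.0% and 100% in control shoot. Both stressed groups lay below the control libraries, and they overlapped with each other. The log2 ratio difference was -2.31 ± 0.59 under cold (SE, limma adjusted p = 0.0069) and -2.11 ± 0.59 under salt (SE, limma adjusted p = 0.012). For os_tR24 34 nt G26T, with its rows in both 5' classes summed, 81.4% and 75.9% were T in cold shoot, 70.8% and 77.4% in salt shoot, and 94.5% and 91.7% in control shoot. Its log2 ratio difference was -1.44 ± 0.38 under cold (SE, limma adjusted p = 0.0090) and -1.70 ± 0.38 under salt (SE, limma adjusted p = 0.0031).

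The whole Arg-CCT family also had lower shares in stressed than in control shoot. Its share misread was 81.7% ± 1.7 in cold shoot, 77.6% ± 3.6 in salt shoot and 93.9% ± 3.6 in control shoot (SD, n = 2 each). In root it was 93.7% ± 1.0 under cold, 94.4% ± 0.3 under salt and 95.2% ± 1.9 in control, and in panicle 87.2% ± 2.9. The shoot values rest on few exact reads: 51 and 57 in cold shoot, 36 and 74 in salt shoot, and 13 and 12 in control shoot. The misread reads numbered 210 and 277, 145 and 223, and 138 and 323 in the same order. Over all mismatched pairs of the shoot the median log2 ratio was lower too, by the values given above, and its part in the Arg-CCT values was not tested.

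**Figure D4:**
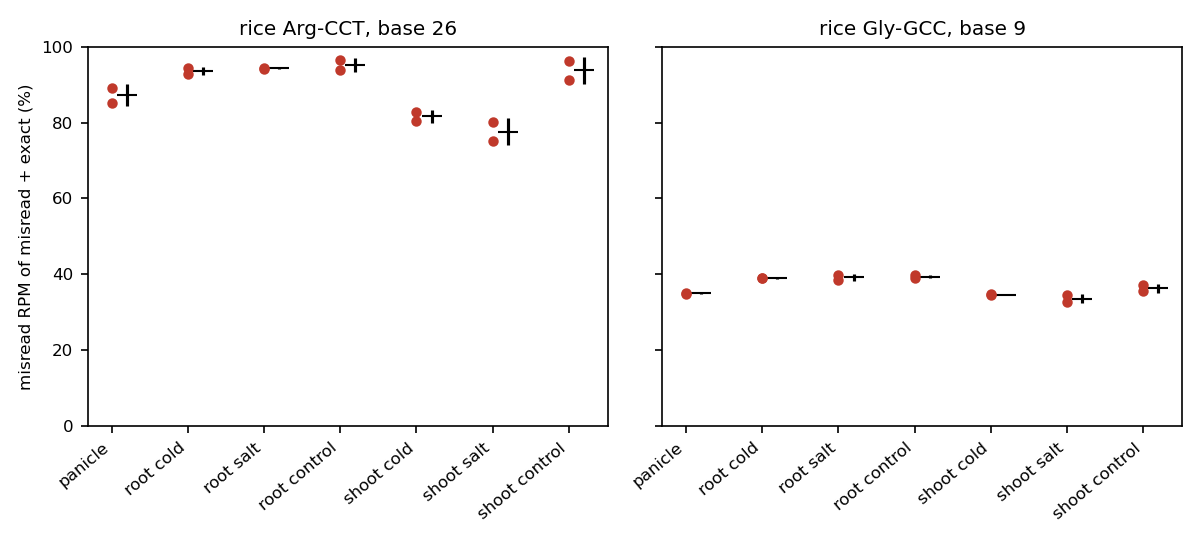
Percent misread (y axis) in each rice library (points), with the group mean and SD beside them, for Arg-CCT at base 26 (left) and Gly-GCC at base 9 (right). Arg-CCT lies at 80.5% and 82.9% in cold shoot and 80.1% and 75.1% in salt shoot, against 91.4% and 96.4% in control shoot. Gly-GCC lies at 38.4% to 39.9% in root and 32.7% to 37.0% in shoot.

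In root the ratio changed in 0 of 133 fragments under cold (limma, 1 at an unadjusted p under 0.05, where 0% of all pairs were called) and in 0 under salt (1 at an unadjusted p under 0.05, where 0% of all pairs were higher and 0.51% lower). With the larger pseudocount the root count under salt was 1, and with exact fragments summed over lengths the count under cold was 1. Control root against control shoot had 0 calls (6 at an unadjusted p under 0.05, where 1.36% of all pairs were higher and 2.38% lower), and 13 with the larger pseudocount. In panicle 1 fragment was lower, where 6.46% of all pairs were, and 37 were called with the larger pseudocount. It was os_tR231 28 nt G26T of Ser-CGA, whose family share, with A and T reads together, was 47.2% to 77.4% over the 14 rice libraries. For T alone against exact reads, the shares were 26.2% and 25.3% in panicle. They were 52.9% and 40.4% in control root, and 51.6% and 47.4% in control shoot. The log2 ratio difference was -1.34 ± 0.33 (SE, limma adjusted p = 0.021), and the call was lost without panicle replicate 1, panicle replicate 2 or control root replicate 1.

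Root and shoot were also compared within treatment by an exact permutation test of the percent misread per fragment, over 216 arrangements. It called 0 of 130 fragments (0.0% of 529 pairs), with 16 at an unadjusted p under 0.05. The smallest p it allows, 0.00926, was reached by os_tR115 25 nt G9A (exact permutation adjusted p = 0.18). Among its A and exact reads, A made up 31.1% in root and 26.6% in shoot. Its 6 root libraries lay between 28.8% and 32.3% and its 6 shoot libraries between 24.5% and 28.5%, without overlap.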

How the data were processed

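Small RNA libraries of pretreated total RNA were sequenced (tRNA-seq), with adapters trimmed by cutadapt. TAIR10 is named as a genome build, per the submitters' processing notes. The aligner, the rice build, the lowest level listed and the total behind RPM remain not given in the sources used here. Deposited values of single fragments are log2 of 1 plus RPM, per the file headers. They were turned back to RPM, and in every library 100% of the values were whole reads (tolerance 0.05), which gave the read numbers and depth. The deposited tRNA lists gave the parent sequences, families (amino acid and anticodon) and positions.

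Each listed 5' fragment was aligned without gaps to the 5' ends of all tRNAs. The percent misread is 100 times misread over misread plus exact RPM of the same start and length. For a single fragment it counts that read base only, and for an end, family or position all listed misread bases. Levels (log2 of RPM + 1) and ratios (misread minus exact on that scale) were fitted with limma 3.58.1 (trend, R 4.3.3) for all groups of a species together, which share an estimate of the spread. Features below a mean of 1 RPM were left out (for ratios, below it in either fragment), and every listed fragment passed. Tests were two-sided, and p-values were adjusted by Benjamini-Hochberg over all features of a comparison. The plan had tests for counts and for normalized values, and those for normalized values were used. Scripts ran in Python 3.11.15 with scipy 1.17.1 and were tested on simulated data.

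Named fragments are the 6 most abundant per species and position, the most abundant one of each family with at least 3 members, and the 3 largest folds in each direction among calls with at least 10 RPM and no overlap between groups. Members, families and comparisons were chosen with earlier results of these data known. Alternatives were other pseudocounts (0.5 and 5 RPM), a filter of 10 RPM, no filter, median centring, the replicate block, summed exact fragments, each library left out, and a limma voom fit on the recovered reads and a range over libraries with at least 20 reads, both added after seeing the data. Calls under the alternatives were counted among the misread fragments only, so no share over all fragments or pairs stands beside them.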

Additional observations from a re-analysis of the deposited data

Results flagged for a closer look

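In 5 cases the effect of a stress on the ratio of misread to exact level differed between rice root and shoot, by the interaction term of the limma fit over 588 pairs. Under cold 1 of 133 misread fragments was called higher in root minus shoot, where 11.6% of all pairs were, and 0 lower, where 0.34% were. Under salt 3 were higher, where 11.2% of all pairs were, and 1 was lower, where 0.51% were. The Arg-CCT fragment os_tR24 34 nt G26T, its rows in both 5' classes summed, had a log2 difference, root effect minus shoot effect, of 1.881 under cold (SE 0.54, limma adjusted p = 0.029) and of 2.265 under salt (SE 0.54, limma adjusted p = 0.015). Its share of T among T and exact reads stayed at 93.7% to 97.8% in the 6 root libraries. The Pro-CGG fragments os_tR209 32 nt G9T and os_tR209 32 nt G9C differed under salt by 2.938 (SE 0.85, limma adjusted p = 0.031) and 2.692 (SE 0.80, limma adjusted p = 0.037), at means of 5.43 and 2.64 RPM. The Gly-GCC fragment os_tR115 26 nt G9A went the other way under salt, with a difference of -2.652 (SE 0.78, limma adjusted p = 0.034). Leaving out single libraries moved the count under cold between 0 and 4 and that under salt between 0 and 12.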

How the results depend on the processing

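Of 50 values of named fragments, 31 kept their call under every alternative run on them, 19 lost it when some single library was left out, and 0 changed direction. With 1 library left out at a time, in which case the lone library of a group is assumed to vary like the other groups, the level counts ranged from 50 to 83 for any difference among the Arabidopsis tissues, 20 to 44 in flower and silique, 51 to 87 in panicle, 33 to 60 in control root against shoot, 3 to 25 in cold root, 9 to 24 in cold shoot, 5 to 24 in salt root and 20 to 45 in salt shoot. The ratio counts ranged from 0 to 0 in both Arabidopsis comparisons and in root under cold and under salt, 0 to 4 in panicle, 0 to 2 in control root against shoot, 2 to 5 in cold shoot, 5 to 23 in salt shoot, 0 to 4 for the cold difference between organs and 0 to 12 for the salt difference. A filter of 10 RPM, which leaves fewer members to test, gave level counts of 24 in control root against shoot, 31 in panicle and 19 in salt shoot, and ratio counts of 1 in cold shoot, 3 in salt shoot, and 0 for both differences between organs. The voom fit gave 39 in cold root, 29 in salt root and 18 in salt shoot. A pseudocount of 5 RPM gave ratio counts of 28 among the Arabidopsis tissues, 9 in flower and silique, 13 in control root against shoot, 37 in panicle, 11 in cold shoot, 29 in salt shoot, 1 in salt root and 5 for the cold difference between organs, and 0.5 RPM gave 0 for that difference. With the exact fragments of a parent summed, the ratio counts were 12, 2, 16, 37, 17 and 29 in the first 6 of these comparisons, 1 in cold root, and 6 and 8 for the cold and salt differences between organs. The cause of these shifts was not tested. A further setting took all misread fragments, also those without a listed counterpart, over all listed exact 5' fragments of the parents, so its shares can be too high. With it, the mean percent misread moved to 11.23, against 4.477, at base 9 in Arabidopsis and to 69.54, against 52.62, at base 26 in rice. At the other sites it was 64.5, against 61.86 (base 26, Arabidopsis), and 26.49, against 27.01 (base 9, rice), and the shift at base 26 in Arabidopsis was above the SD between replicates in flower, silique, stem leaf and stem. The replicate numbers are shared by all groups, but no label says that a number marks a shared plant or batch. Deviations of replicate 1 from the group mean correlated across groups by 0.10 to 0.24 in Arabidopsis and 0.05 to 0.16 in rice (0.40 to 0.64 in rice among fragments of at least 20 RPM), and with the replicate block the level counts were 89, 42, 71, 55, 18, 15, 17 and 35 in the order of the first list, with no ratio count changed.

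Libraries of few reads limit what can be seen: at 3.85 RPM per read, a misread fragment of low level falls between 0 and a few reads in the shallowest Arabidopsis library.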
